A study of Mus musculus with 5 samples.

Results

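The genes described are those of the proteasome, taken as the protein-coding genes whose mouse symbol begins with *Psma*, *Psmb*, *Psmc*, *Psmd* or *Psme*. There were 45 such genes, of which 43 were among the 21019 genes with values. They comprise 8 alpha-ring genes, 7 constitutive and 4 induced or thymic beta-ring genes, 6 ATPases and 3 other subunits of the base, 8 lid subunits, 3 chaperones of base assembly and 5 activator genes. The last is *Psmc3ip*, a meiotic recombination factor gene that shares the prefix without being a subunit. *Psmb11*, the thymic beta subunit gene, and *Psme2b*, a copy of *Psme2*, had no value in the table.

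The proteasome is the protease that breaks down ubiquitin-tagged proteins. Its core particle is a barrel of alpha rings, which gate the entrance, and beta rings, which hold the cutting sites. The regulatory particle caps the barrel: ATPases of its base unfold the substrate and push it in, other base subunits bind ubiquitin, and the lid removes the ubiquitin chain before entry. Activators such as PA28 and PA200 can cap the barrel instead. In immune cells and under interferon, the cutting subunits are exchanged for induced forms. Podocytes are long-lived cells of the kidney filter and, like all nucleated cells, carry proteasomes.

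RNA was taken from podocytes of mice aged 3 weeks by translating ribosome affinity purification (TRAP), in which Cre under the podocin promoter switches on a GFP-tagged ribosomal protein and antibodies to GFP pull down the ribosomes with their mRNA. The *Pfn1*-KO mice carried *Pfn1* fl/fl with Pod-Cre and Rosa-DTR fl, that is with loxP sites around exon 1 of the gene of profilin1, an actin-binding protein, and the controls carried *Pfn1* +/+ with the same other alleles. Both groups thus carried Cre, the floxed diphtheria toxin receptor allele and the TRAP transgene, on a C57BL/6 background. There were 2 control libraries, named here Control N1 and Control N3 after their column headings, and 3 libraries labelled *Pfn1*-KO (N2, N3 and N4), each from a pool of 3 mice, and a shared N number does not pair libraries. The sample labels speak of isolated podocytes and do not mention the ribosome pulldown. Values are FPKM, read counts divided by gene length and by library size, so levels can be set side by side between genes.

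The libraries of the 2 groups differed across the whole transcriptome, and every result below has to be read against that. Library sizes recovered from the values were 18186900 to 24871893 reads. The controls listed 6901 and 7528 genes above 0 and the libraries labelled *Pfn1*-KO 20435 to 20980, while a single rRNA gene took 52.0% and 58.9% of the FPKM sum in the controls against 0.126%, 24.5% and 0.0850% in N2, N3 and N4. *Pfn1* itself, the targeted gene, stood at 13.6 and 11.8 FPKM in the controls against 41.9, 17.2 and 27.8 FPKM, a log2 difference (*Pfn1*-KO over control, as throughout) of 1.05 (standard error, SE, 0.56) that did not pass the test described further on (limma adjusted p = 0.123, with the adjustment of Benjamini and Hochberg, BH) but passed without Pfn1-KO N3 (1.36, limma BH-adjusted p = 0.0454, with a range from 0.0454 to 0.978 over its 14 alternatives), so the knockout was not visible at the level of the whole gene. Podocyte markers were present in every library, with summed levels of 125 to 210 FPKM in the controls and 317 to 599 FPKM in the others. Of these, 10 of 15 rose, where 70.1% of all genes tested were called higher. All 15 proximal tubule markers rose too, from sums of 156 to 374 FPKM to sums of 2628 to 6468 FPKM, as did all 8 of the thick limb and distal tubule (16.1 to 17.3 against 482 to 784 FPKM), 2 of 5 of the collecting duct (37.6 to 84.4 against 45.4 to 82.9), 6 of 8 of endothelium (9.01 to 12.5 against 67.8 to 104), 5 of 7 of mesangium and smooth muscle (2.38 to 42.7 against 58.9 to 108) and 6 of 12 of immune cells (9.29 to 494 against 33.3 to 393). With quantile normalization 1023 of the 14631 genes tested were called higher. Under that setting 10 of the 15 proximal tubule markers, 7 of the 8 of the thick limb and distal tubule and 1 of the 15 podocyte markers were called higher. It was 2 of 8 for endothelium, 1 of 7 for mesangium and smooth muscle, 0 of 12 for immune cells and 0 of 5 for the collecting duct. *Gatm*, *Mep1a*, *Umod*, *Pvalb*, *Kcnj1*, *Kdr*, *Cdh5*, *Plvap*, *Pdgfrb* and *Des* were some of the markers at 0 in both controls, and so was the podocyte marker *Tcf21*. The part of other cell types, RNA quality and rRNA in the proteasome results was not tested, and fewer cells of a type cannot be told apart from less RNA per cell.

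Most proteasome genes were higher in the libraries labelled *Pfn1*-KO, and a small set of very abundant ones was lower. Of the 43 genes with values, 42 reached 1 FPKM in at least 2 libraries and were tested with limma on log2(FPKM + 1); the exception, *Psma8*, the alpha subunit of spermatocytes, stood at 4.45 and 0 FPKM in the controls versus 0.0868, 0.193 and 0.0441 FPKM in the others. The limma test with Benjamini-Hochberg adjustment over 14631 genes called 24 of the 42 higher and 2 lower, where it called 70.1% of all genes tested higher and 2.13% lower. The count of 24 higher fell to 6 with median-ratio scaling, 11 with rescaling to nuclear protein-coding genes and 1 with quantile normalization. Then 6, 6 and 5 were called lower. Over all 14631 genes tested, 6854, 8025 and 1023 were called higher and 904, 620 and 1806 lower, in the same order. Without Pfn1-KO N2, 15 of 41 were called higher, without Pfn1-KO N3 16 of 41 and without Pfn1-KO N4 18 of 40. Over all genes these counts were 6746 of 11764, 10623 of 14505 and 7150 of 11788. The median log2 fold change of the 42 genes was 1.75, as was that of all genes tested (1.75), and 1.74 with the genes unread in both controls set at 3 reads. Protein-coding genes tested had a median of 1.93, and 8674 of 11844 of them were called higher and 255 lower. The match with all genes tested did not hold under every setting. The median of the tested proteasome genes was below that of all genes with limma-voom (3.17 against 5.84), a pseudocount of 0.1 (2.88 against 3.79) and median-ratio scaling (0.73 against 0.98), and above it with no filter on low values (1.66 against 1.16). Quantile normalization moved the medians to -0.14 and -0.09, so the changes below are best read relative to that shift.

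The order of levels was not the same in the 2 groups. In the libraries labelled *Pfn1*-KO, the 31 subunits of the 26S proteasome (alpha, constitutive beta, base and lid) were all read and lay in bands of 6.58 to 47.6 FPKM in N2, 11.5 to 83.6 FPKM in N3 and 4.15 to 45.7 FPKM in N4. In Control N1 they ran from 0 to 270 FPKM and in Control N3 from 0 to 450 FPKM, with 4 and 5 subunits at 0. The standard deviation of log2(FPKM + 1) over the 31 subunits was 2.11 and 2.52 in the controls and 0.71, 0.78 and 0.82 in N2, N3 and N4. The median subunit was at 5.33 and 3.85 FPKM in the controls against 17.3, 22.9 and 13.4 FPKM in the others. The 31 subunits were thus less widely spread in mRNA level in the libraries labelled *Pfn1*-KO than in the controls. Of all genes tested, 56.4% and 53.1% were at 0 in Control N1 and Control N3, against 0.03%, 1.09% and 0.06% in N2, N3 and N4. The spread over other genes was not computed, so the difference is not shown to be particular to the proteasome.

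The median subunit and the most abundant ones differed in opposite directions, and the sums overlapped between the groups: the 31 subunits added up to 705 and 1237 FPKM in the controls and to 606, 924 and 532 FPKM in the others. In the controls 83.0% and 90.3% of these sums came from only 6 subunits, *Psmd7*, *Psma4*, *Psmc1*, *Psma7*, *Psmd1* and *Psmd2*, which were singled out after their values were seen. The same 6 gave 31.1%, 30.3% and 33.9% of the sums in N2, N3 and N4.

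**Figure D1:**
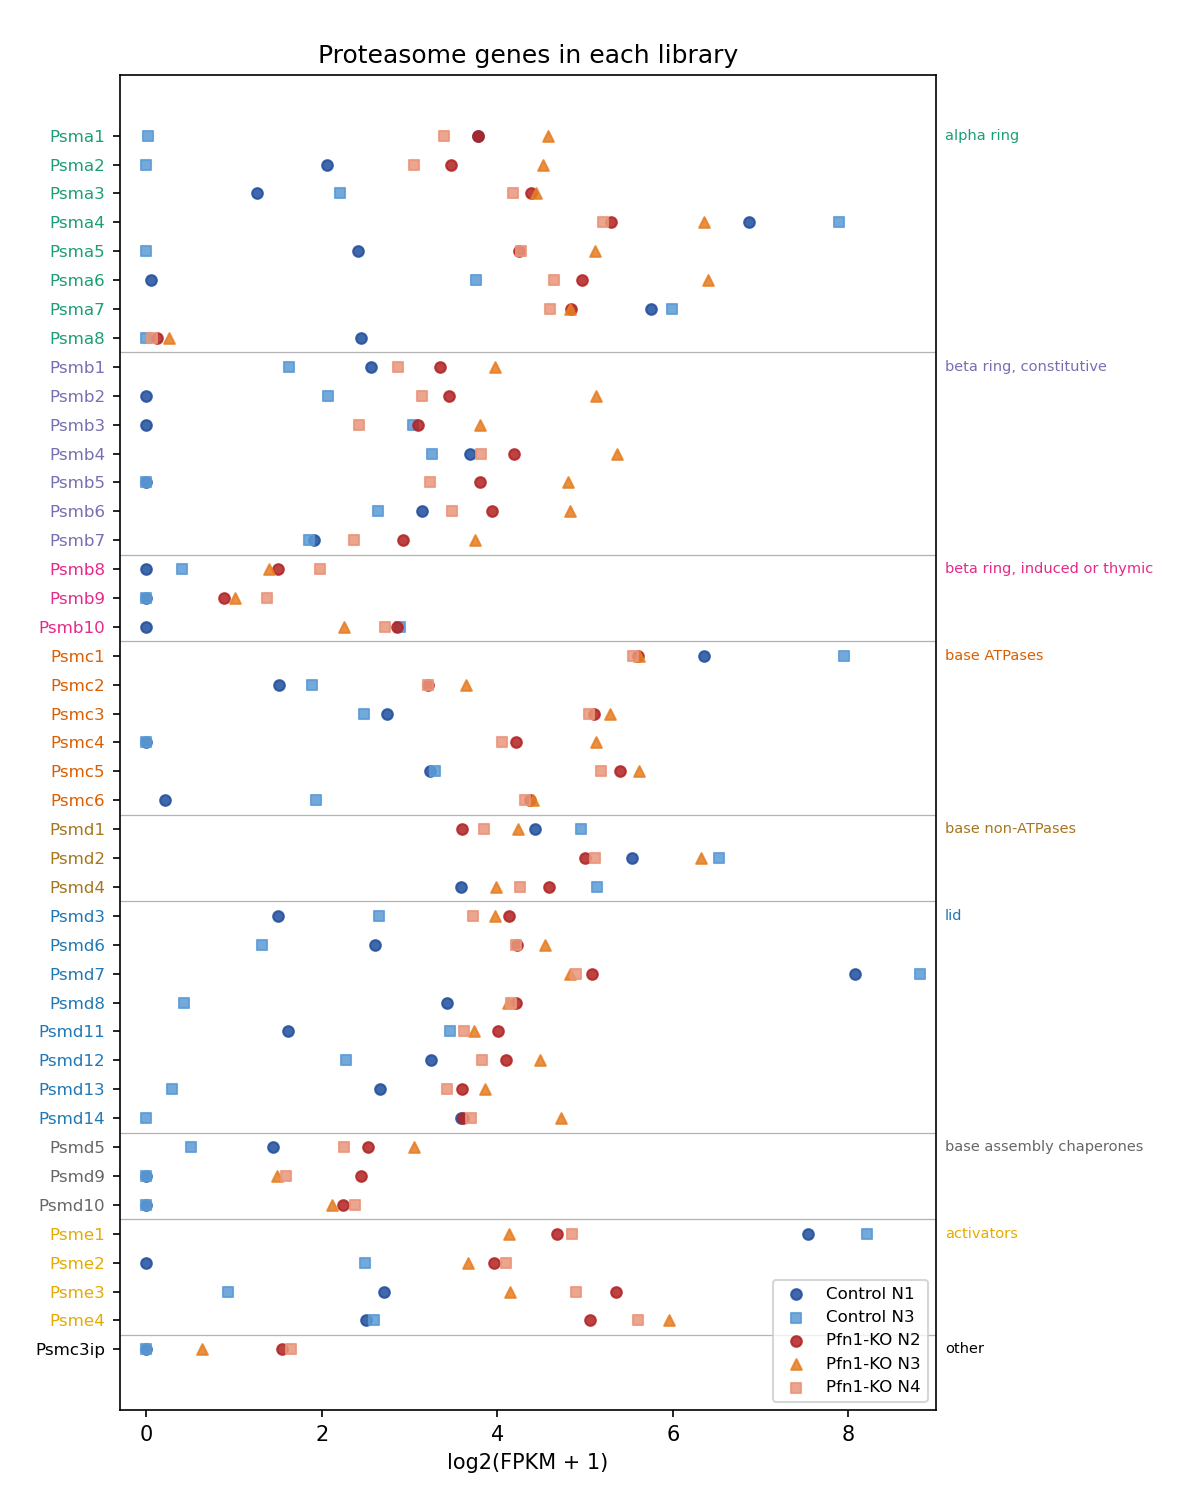
Level of each of the 43 proteasome genes with values in each library, one row per gene and one point per library, on an axis of log2(FPKM + 1), with genes grouped by their place in the complex. Control points spread from 0 to 450 FPKM, while for the 31 subunits of the 26S proteasome the points of the 3 libraries labelled *Pfn1*-KO lie between 4.15 and 83.6 FPKM.

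*Psmd7* and *Psme1* were the genes that fell. *Psmd7* (ENSMUSG00000039067.5, GRCm38 chr8:107580381-107588464, minus strand) encodes Rpn8, the lid subunit that pairs with the deubiquitinase, and stood at 270 and 450 FPKM in the controls (14447 and 23221 reads) and at 32.9, 27.5 and 28.7 FPKM in N2, N3 and N4 (1720, 1546 and 1181 reads). The groups were far apart and the 3 libraries labelled *Pfn1*-KO nearly equal. The log2 fold change was -3.51 (SE 0.57, limma BH-adjusted p = 0.00283), and *Psmd7* was called lower under all 14 alternatives, with log2 fold changes from -5.31 to -2.80 and limma BH-adjusted p of 0.00108 to 0.0219.

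*Psme1* (ENSMUSG00000022216.17, GRCm38 chr14:55578123-55581529, plus strand) encodes PA28 alpha, a subunit of an ATP-independent activator ring. It reached 185 and 297 FPKM in the controls (9664 and 14962 reads) and stood at 24.7, 16.6 and 28.0 FPKM in N2, N3 and N4 (1260, 910 and 1124 reads). Again no library of one group reached the other. It fell by 3.32 on the log2 scale (SE 0.58, limma BH-adjusted p = 0.00354), and all 14 alternatives called it lower too (log2 fold changes from -5.11 to -2.61, limma BH-adjusted p of 0.00126 to 0.0296).

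In 4 further genes every library labelled *Pfn1*-KO lay below both controls without passing the test, so that 6 of 42 had this order against 3.49% of all genes tested. The opposite order held for 31 of 42 against 80.1% of all genes, and *Psma1*, *Psmb3*, *Psmb10*, *Psmd2* and *Psmd4* overlapped. *Psma4* (alpha3) stood at 116 and 237 FPKM in the controls versus 38.2, 80.6 and 35.9 FPKM in the others (log2 difference -1.77, SE 0.68, limma BH-adjusted p = 0.0507). It lay at the threshold, and 6 alternatives called it lower, among them those without Control N1 and without Pfn1-KO N3 (limma BH-adjusted p of 0.0137 to 0.387 over all 14). *Psmc1* (the ATPase Rpt2) was at 80.7 and 246 FPKM against 47.6, 48.2 and 45.7 FPKM (-1.56, SE 0.67, limma BH-adjusted p = 0.0697); it was called lower without Control N1 (-2.36, limma BH-adjusted p = 0.0152; 0.0122 to 0.489 over its alternatives).

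*Psma7* (alpha4) was at 52.9 and 62.8 FPKM against 27.7, 27.5 and 23.3 FPKM (-1.11, SE 0.50, limma BH-adjusted p = 0.0798). *Psmd1* encodes Rpn2, a large scaffold of the base, and was at 20.6 and 30.0 FPKM against 11.1, 17.9 and 13.4 FPKM (-0.80, SE 0.49, limma BH-adjusted p = 0.176). *Psma4*, *Psmc1*, *Psma7* and *Psmd1* were each called lower with median-ratio scaling and with rescaling to nuclear protein-coding genes. *Psmc1* and *Psma7* are named here because of their values. *Psma4* shares 114 exon bases with *AY074887* on the other strand, *Psme1* shares 14 with *Emc9* on the other strand, and *Psmd1* shares 301 with *Gm21972* on its own strand.

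The other 2 subunits of the base that are not ATPases overlapped between the groups. *Psmd2*, which encodes the scaffold Rpn1, stood at 45.4 and 91.6 FPKM in the controls versus 31.1, 78.9 and 33.5 FPKM in the others (log2 difference -0.56, SE 0.68, limma BH-adjusted p = 0.471). *Psmd4*, which encodes the ubiquitin receptor Rpn10, was at 11.1 and 34.3 FPKM against 23.1, 14.9 and 18.2 FPKM (-0.08, SE 0.62, limma BH-adjusted p = 0.904). In the base, *Psmd1*, *Psmd2*, *Psmd4* and the ATPase gene *Psmc1* thus had log2 differences below 0, although *Psmd4* changed sign without Control N3 (0.69) and without Pfn1-KO N3 (0.06), and *Psmd2* and *Psmd4* did so after rescaling to TPM (0.17 and 0.65).

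*Psmd7*, *Psme1* and most of their neighbours in the ranking had, outside the values, a stretch of coding sequence rich in purines; the exception was *Psmc1*, whose richest window held no more purines than those of *Psmd12* and *Psme4*, which rose. The window of 50 coding bases with the most purines (A or G) was found in each of the 42 genes, in the reference sequence of GRCm38 with GENCODE vM21 transcripts. Windows of 6 of the 7 genes with a log2 difference of -0.56 or less are given from 5′ to 3′ on the coding strand, with in-frame codons for lysine (AAA, AAG) and glutamate (GAA, GAG) in capitals; all windows are exonic coding sequence, and those of *Psme1* and *Psmc1* join 2 exons, so their coordinates span an intron.
*Psmd7*, chr8:107580945-107580994, minus strand: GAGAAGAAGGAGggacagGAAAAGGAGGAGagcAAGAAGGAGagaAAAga
*Psme1*, chr14:55580003-55580124, plus strand: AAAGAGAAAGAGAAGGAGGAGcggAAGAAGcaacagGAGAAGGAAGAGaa
*Psma4*, chr9:54957724-54957773, plus strand: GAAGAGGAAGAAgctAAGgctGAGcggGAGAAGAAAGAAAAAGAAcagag
*Psmc1*, chr12:100114921-100115427, plus strand: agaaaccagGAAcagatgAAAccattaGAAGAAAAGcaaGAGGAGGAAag
*Psma7*, chr2:180036489-180036538, minus strand: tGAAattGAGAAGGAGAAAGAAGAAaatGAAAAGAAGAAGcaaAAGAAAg
*Psmd2*, chr16:20660019-20660068, plus strand: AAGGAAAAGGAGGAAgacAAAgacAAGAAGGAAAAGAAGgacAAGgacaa
The purines numbered 48 of 50 in *Psmd7*, 47 in *Psme1*, 46 in *Psmd2*, 45 in *Psma7*, 44 in *Psma4* and 41 in *Psmc1*. Lysine or glutamate took 12 or 13 of the 16 whole codons in the windows of all of these but *Psmc1*, which had 8. Such runs of alternating lysine and glutamate are known as KEKE motifs and were described in PA28 and proteasome subunits. In *Psmd7* the window began at base 856 of 963 of the coding sequence, in *Psma7* at 690 of 744 and in *Psma4* at 721 of 783, near the C-terminal end, whereas that of *Psme1* began at base 208 of 747.

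For contrast, the windows of 3 genes that rose are shown with the same capitals. *Psme2* encodes PA28 beta, the partner of *Psme1* in the ring, and *Psmc4* and *Psmb5* were the tested genes with the largest values among those unread in both controls; the windows of *Psme2* and *Psmb5* join 2 exons.
*Psme2*, chr14:55589392-55589630, minus strand: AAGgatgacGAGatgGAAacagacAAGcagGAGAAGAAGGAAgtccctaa
*Psmc4*, chr7:28048904-28048953, minus strand: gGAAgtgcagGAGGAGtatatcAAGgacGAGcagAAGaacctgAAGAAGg
*Psmb5*, chr14:54614450-54616532, minus strand: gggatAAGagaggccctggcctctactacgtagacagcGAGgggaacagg
These held 39, 39 and 33 purines of 50, and 8, 8 and 2 lysine or glutamate codons. Over the 36 tested genes with fewer than 44 purines, lysine and glutamate codons numbered 1 to 9 of 16, with a median of 5.

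The 6 genes with at least 44 purines were *Psmd1*, *Psmd7*, *Psme1*, *Psmd2*, *Psma7* and *Psma4*, and all 6 had a log2 difference below 0, from -3.51 to -0.56, except that *Psmd2* was above 0 after rescaling to TPM. Of the 5 genes with 40 to 43 purines, *Psmc1* was below 0 and *Psmd12*, *Psme4*, *Psmc2* and *Psmc3ip* rose, where 65.8% of protein-coding genes tested in that range were called higher. Of the 31 genes with fewer than 40 purines, 20 rose, against 79.1% called higher among protein-coding genes tested in that range, and *Psmd4* was below 0. The limit of 44 was set after the values were seen, so the split is a description. A relation of this kind was present across all genes: among protein-coding genes tested, 50.5% of the 705 with at least 44 purines had a log2 difference below 0 and 22.0% were called lower, against 10.5% and 2.49% of the 2325 with 40 to 43 purines, and 3.59% and 0.477% of the 8813 with fewer.

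Across genes, Spearman's correlation of the log2 difference with the most purine-rich coding window was -0.33 over the 42 proteasome genes and -0.16 over 11843 protein-coding genes, and with the most purine-rich window of the whole transcript it was -0.39 and -0.25. The genes share the same 5 libraries, so they are not independent points. The correlation with the window richest in A alone was -0.14 over the 42 genes for coding sequence and -0.28 for the whole transcript, that with GC content -0.18 and that with transcript length 0.08. *Psmd4* had 39 purines in its best coding window but a share of 0.88 in its best window over the whole transcript. *Psmd12*, which rose (log2 fold change 1.38), had the same share of 0.88 over the whole transcript.

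**Figure D2:**
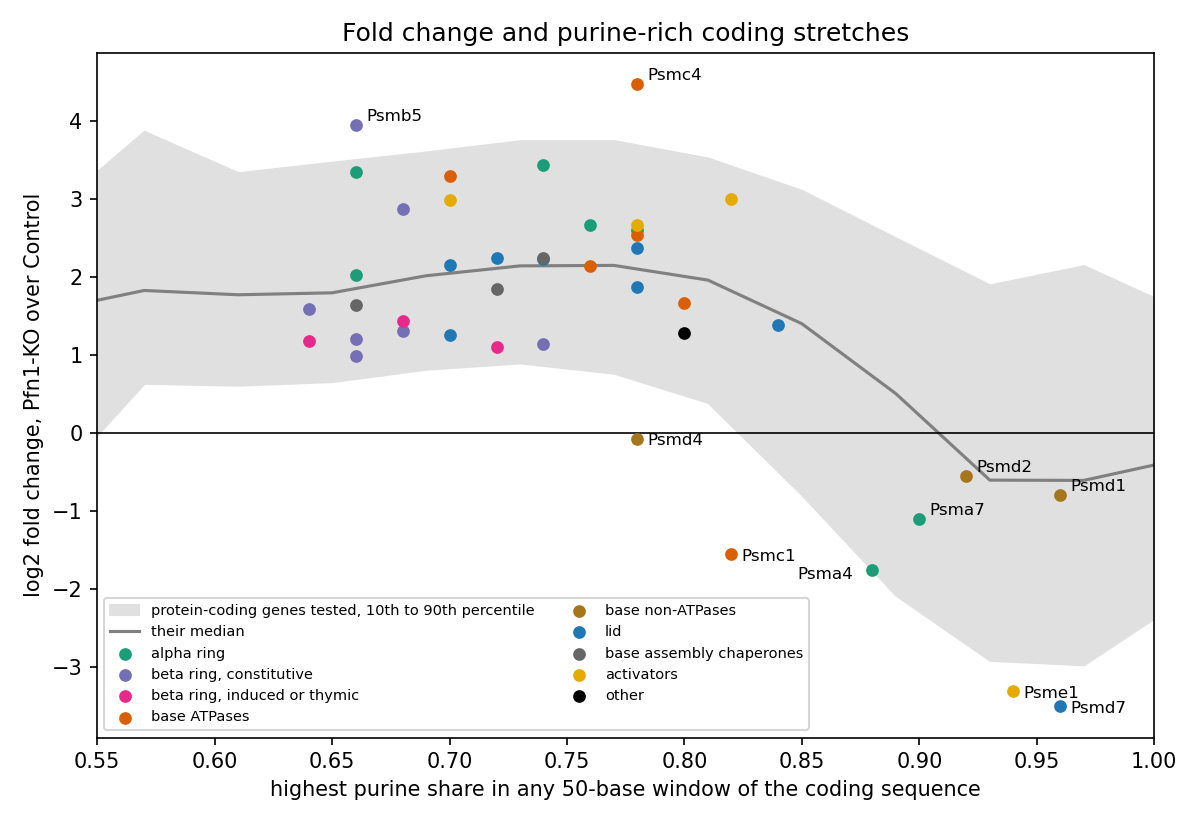
Log2 fold change of the 42 proteasome genes against the share of purines in their most purine-rich window of 50 coding bases, over the quantiles of all protein-coding genes tested. The 6 genes with a share of at least 0.88 lie at -0.56 or below.

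In the alpha ring, which forms the gate of the core particle, 4 of the 7 tested genes rose, where 70.1% of all genes tested did. The other 3 did not pass the test, and the median log2 fold change was 2.60. *Psma6* (alpha1) showed the largest rise among genes read in every library, from 0.0342 and 12.6 FPKM (1 and 354 reads) to 30.1, 83.6 and 24.1 FPKM (859, 2566 and 540 reads), a log2 fold change of 3.43 (SE 1.14, limma BH-adjusted p = 0.0327). The controls differed from each other more than Control N3 did from Pfn1-KO N4, and the call was lost when any library except Control N3 was left out (limma BH-adjusted p of 9.59e-05 to 0.314 over 14 alternatives). *Psma2*, *Psma3* and *Psma5* rose by log2 fold changes of 2.65, 2.60 and 3.33, and *Psma5* was unread in Control N3 (4.34 and 0 FPKM against 17.9, 33.8 and 18.3 FPKM). *Psma5* shares 60 exon bases with *1700010K24Rik* on the other strand. *Psma1* showed how unevenly the controls sampled the ring: it had 890 reads in Control N1 and 1 read in Control N3, against 866, 1682 and 510 reads in the others, and did not pass the test (2.02, limma BH-adjusted p = 0.124).

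In the constitutive beta ring, all 7 genes had a log2 fold change above 0, from 0.98 to 3.94 with a median of 1.30. Of the 7, only *Psmb2* and *Psmb5* passed the test, against 70.1% called higher over all genes tested. *Psmb5* carries the chymotrypsin-like site. It was unread in both controls but at 13.0, 26.9 and 8.38 FPKM in N2, N3 and N4 (269, 601 and 137 reads), at least 57.3-fold above 3 reads in a control library (limma BH-adjusted p = 0.00177). *Psmb6*, with the caspase-like site, stood at 7.80 and 5.24 FPKM in the controls versus 14.3, 27.5 and 10.2 FPKM in the others, and *Psmb7*, with the trypsin-like site, at 2.75 and 2.61 FPKM against 6.58, 12.4 and 4.15 FPKM. Neither group overlapped the other in these genes, but neither passed the test (log2 differences of 1.19 and 1.13, SE 0.56 and 0.51, limma BH-adjusted p = 0.0886 and 0.0794), and both were below 0 with median-ratio scaling and quantile normalization.

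Each core particle holds all of these catalytic subunits, yet *Psmb5* was unread in libraries where *Psmb6* and *Psmb7* were read. *Psmb5* joins 5 other proteasome genes at 0 in both controls and above 0 in all others, namely *Psmb9*, *Psmc3ip*, *Psmc4*, *Psmd9* and *Psmd10*, that is 6 of 42. This pattern held for 40.0% of all genes tested and for 3805 of 11844 protein-coding genes tested. All 6 entered the test only through the libraries labelled *Pfn1*-KO, so their calls and p-values are no support beyond the values themselves. Processed pseudogenes of *Psmb5*, *Psmb6* and *Psmb7* are annotated, and reads that match a gene and its copy may not be assigned to either. This holds for the libraries of both groups, and its part in the levels was not tested.

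The induced beta subunits, which replace the constitutive catalytic ones in the immunoproteasome, were not all low: *Psmb8* and *Psmb9* were low in every library, whereas *Psmb10* exceeded its constitutive counterpart *Psmb7* in Control N3 and Pfn1-KO N4. *Psmb8* stood at 0 and 0.324 FPKM in the controls versus 1.83, 1.64 and 2.94 FPKM in N2, N3 and N4 (log2 fold change 1.42, SE 0.34, limma BH-adjusted p = 0.0106), a call lost without Control N1 (1.22, limma BH-adjusted p = 0.0736; 0.0115 to 0.278 over its alternatives). *Psmb9* was unread in both controls but at 0.851, 1.01 and 1.59 FPKM in the others (limma BH-adjusted p = 0.0160), a call lost without either control (limma BH-adjusted p = 0.129 and 0.132; 0.00103 to 0.161 over its alternatives). *Psmb10* was at 0 and 6.40 FPKM against 6.27, 3.75 and 5.61 FPKM, so that the groups overlapped (1.17, SE 0.82, limma BH-adjusted p = 0.227), and it was called higher without Control N3 (2.61, limma BH-adjusted p = 0.00221) and below 0 without Control N1 (-0.28; limma BH-adjusted p of 0.00221 to 0.999 over its alternatives). With quantile normalization *Psmb8*, *Psmb9* and *Psmb10* all had log2 differences below 0. *Psmb8* and *Psmb9* were under 1 FPKM in both controls and so entered the test only through the libraries labelled *Pfn1*-KO.

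Summed over the 3 pairs, induced over constitutive catalytic subunits gave a ratio of 0.265, 0.0960 and 0.447 in N2, N3 and N4, and of 0 and 0.856 in the controls, whose sums were only 10.5 and 7.86 FPKM for the constitutive subunits. The order N3, N2, N4 was the same for *Psmb8* over *Psmb5* (0.0611, 0.141 and 0.351), *Psmb9* over *Psmb6* (0.0368, 0.0595 and 0.156) and *Psmb10* over *Psmb7* (0.303, 0.953 and 1.35). The constitutive sums, 66.7, 33.8 and 22.7 FPKM in N3, N2 and N4, varied more than the induced sums of 6.40, 8.95 and 10.1 FPKM. In the same order of libraries the summed levels of 12 immune cell markers went up (33.3, 251 and 393 FPKM), while those of proximal tubule markers (6468, 4349 and 2628 FPKM) and podocyte markers (599, 486 and 317 FPKM) went down. In the controls the immune sum was 494 FPKM in Control N1, where the ratio was 0, and 9.29 FPKM in Control N3, where it was 0.856. *Lyz2* alone stood at 458 FPKM in Control N1, whereas *C1qa*, *C1qc*, *H2-Aa*, *H2-Ab1* and *H2-Eb1* were at 0 in both controls. The part of these cell types in the ratios was not tested. *Psmb7*, *Psmb8* and *Psmb9* share 405, 498 and 212 exon bases with genes on the other strand (*Nek6*, *Gm20496* and *Tap1*), from which reads cannot be told apart where strand was not used in counting. *Psmb5* shares 109 with *Mir686* on its own strand.

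In the base, 5 of the 6 ATPase genes rose, the exception being *Psmc1*, a count to be read beside the 70.1% of all genes tested that rose. *Psmc4* (Rpt3) was unread in both controls but at 17.6, 34.0 and 15.6 FPKM in N2, N3 and N4 (879, 1829 and 614 reads), at least 257-fold above 3 reads in a control library (limma BH-adjusted p = 0.00150). It entered the test only through the libraries labelled *Pfn1*-KO, so its calls are no support beyond the values. *Psmc6* (Rpt4) rose from 0.157 and 2.83 FPKM to 19.7, 20.2 and 18.9 FPKM, with near-equal levels in the 3 libraries (log2 fold change 3.29, SE 0.59, limma BH-adjusted p = 0.00378), a call lost with median-ratio scaling (1.99) and quantile normalization (1.09; limma BH-adjusted p of 0.000102 to 0.192 over its alternatives). *Psmc2*, *Psmc3* and *Psmc5* (Rpt1, Rpt5 and Rpt6) rose by 1.66, 2.53 and 2.14 on the log2 scale, and *Psmc3* shares 215 exon bases with *Slc39a13* on the other strand. The 6 ATPases form a single ring in which each occurs once. In Control N3 *Psmc1* was at 246 FPKM and the other ATPases at 0 to 8.77 FPKM, whereas in Pfn1-KO N4 *Psmc1* was at 45.7 FPKM and the others at 8.23 to 35.3 FPKM.

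In the lid, 4 of 8 genes rose (*Psmd3*, *Psmd6*, *Psmd12* and *Psmd13*, by log2 fold changes of 1.38 to 2.36), where 70.1% of all genes tested rose. *Psmd7* fell, and *Psmd8*, *Psmd11* and *Psmd14* did not pass the test. *Psmd13* and *Psmd3* share 342 and 17 exon bases with genes on the other strand (*Sirt3* and *Gm12356*). *Psmd14* encodes Rpn11, the deubiquitinase that forms a pair with the product of *Psmd7*. It stood at 11.0 and 0 FPKM in the controls versus 11.2, 25.5 and 12.0 FPKM in the others (2.22, SE 1.04, limma BH-adjusted p = 0.0891), and passed without Control N1 (4.01, limma BH-adjusted p = 0.000544; up to 0.757 over its alternatives). In the controls *Psmd7* thus exceeded *Psmd14* by 270 to 11.0 FPKM and by 450 to 0 FPKM, while in the libraries labelled *Pfn1*-KO the levels were 32.9 and 11.2, 27.5 and 25.5, and 28.7 and 12.0 FPKM.

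The 3 genes of base assembly chaperones, which hold ATPases until the base is complete, all rose, as did 70.1% of all genes tested. *Psmd9* and *Psmd10* were unread in both controls but at 4.45, 1.80 and 2.01 FPKM and 3.71, 3.34 and 4.19 FPKM in N2, N3 and N4, at least 99.1-fold and 37.3-fold above 3 reads in a control library (limma BH-adjusted p = 0.00706 and 0.00181). *Psmd5* rose (1.72 and 0.418 against 4.76, 7.27 and 3.76 FPKM; log2 fold change 1.63, SE 0.46, limma BH-adjusted p = 0.0184). *Psmd9* shares 1849 exon bases with *Gm26745*, and *Psmc3ip* shares 385 with *Mlx*, each on the other strand. *Psmc3ip* also rose, from 0 in both controls to 1.93, 0.553 and 2.15 FPKM (limma BH-adjusted p = 0.0250), a call lost without either control (limma BH-adjusted p = 0.0989 and 0.101; 0.000953 to 0.125 over its alternatives).

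Among the activators *Psme1* fell, and *Psme2*, *Psme3* and *Psme4* rose, against 2.13% and 70.1% of all genes tested. *Psme2*, whose product alternates with that of *Psme1* in the PA28 ring, stood at 0 and 4.62 FPKM in the controls versus 14.6, 11.7 and 16.1 FPKM otherwise (log2 fold change 2.66, SE 0.74, limma BH-adjusted p = 0.0182), and the call was lost without any 1 of the libraries labelled *Pfn1*-KO (limma BH-adjusted p = 0.0755 to 0.0787; 0.000449 to 0.501 over its alternatives). *Psme1* exceeded *Psme2* by 1.69, 1.41 and 1.74 times in N2, N3 and N4, close to each other, and by 64.2 times in Control N3. In Control N1 *Psme1* was at 185 FPKM and *Psme2* was unread.

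*Psme3*, which encodes the nuclear activator PA28 gamma, rose (5.55 and 0.906 against 40.0, 16.7 and 28.8 FPKM; log2 fold change 2.98, SE 0.69, limma BH-adjusted p = 0.00926). *Psme4*, which encodes PA200, a large single-chain activator, rose from 4.67 and 5.04 FPKM to 32.2, 61.1 and 47.5 FPKM (2.99, SE 0.51, limma BH-adjusted p = 0.00327). In neither gene did the groups overlap. Both calls were lost with median-ratio scaling and quantile normalization. That of *Psme3* was also lost with limma-voom (BH-adjusted p = 0.0919) and with rescaling to nuclear protein-coding genes (limma BH-adjusted p = 0.0537).

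**Figure D3:**
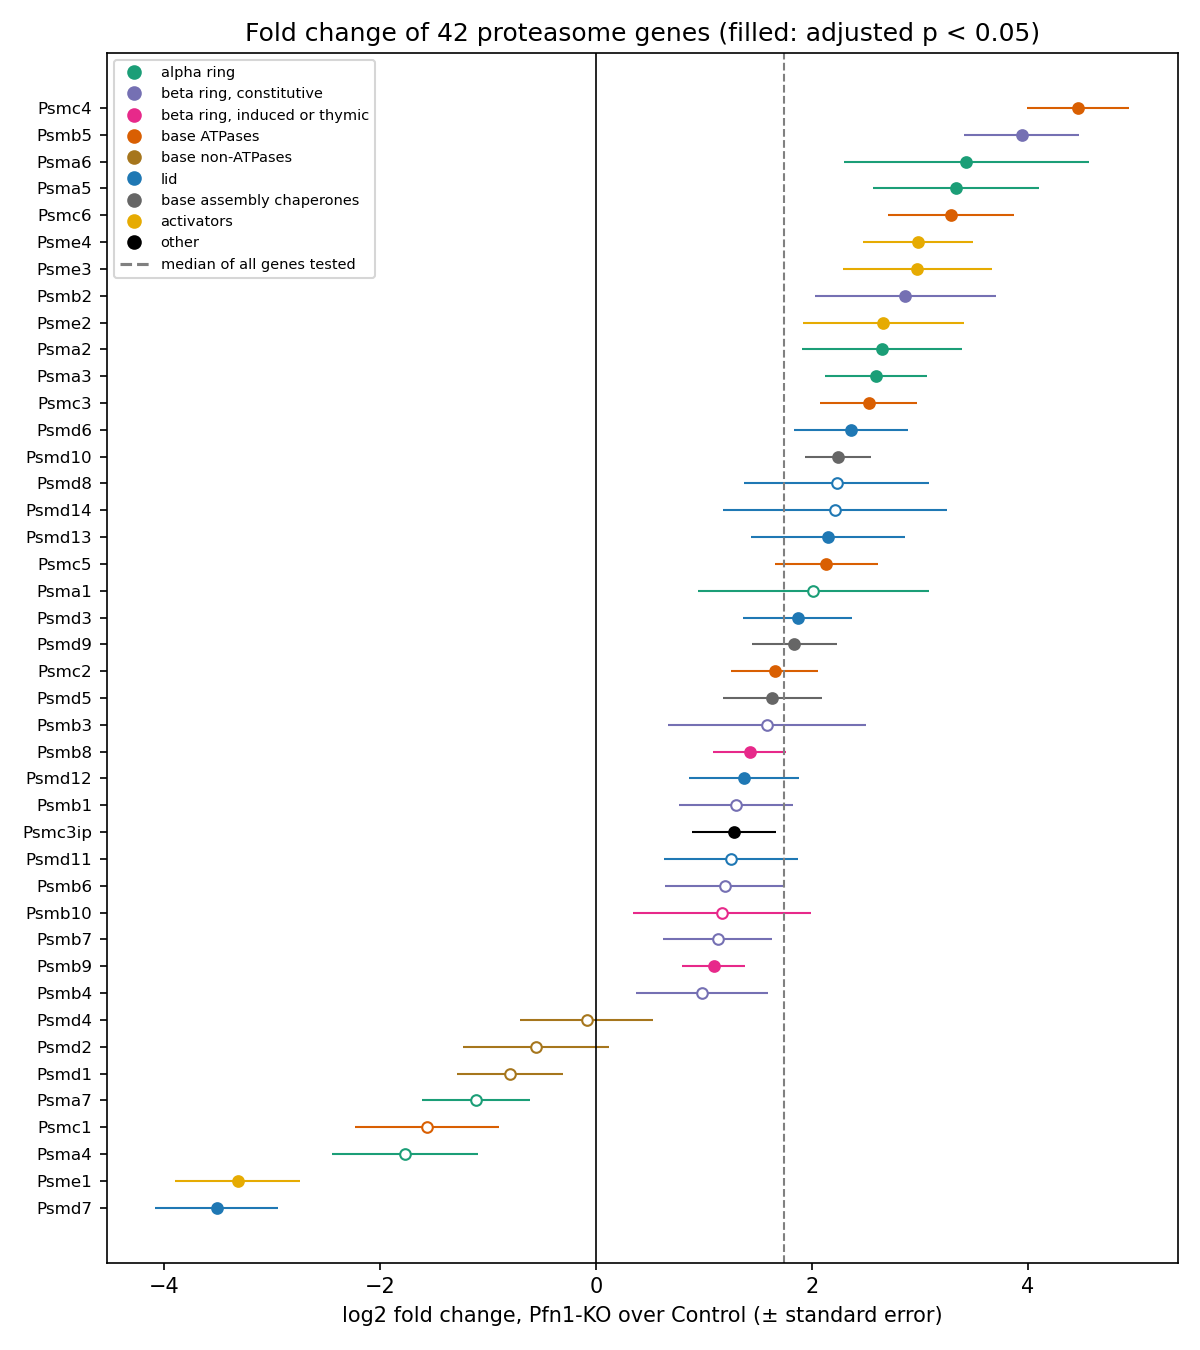
Log2 fold change of each tested proteasome gene with its standard error, sorted by size, coloured by place in the complex and filled where the adjusted p was under 0.05. The dashed line is the median of all genes tested (1.75), and 24 genes above 0 and 2 below 0 are filled. This share changes with the scaling (6 and 6 with median-ratio scaling, where 6854 of all 14631 genes tested were called higher and 904 lower).

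The 3 libraries labelled *Pfn1*-KO also differed from each other along the parts of the complex. In Pfn1-KO N3, 13 of the 14 core particle genes were above both N2 and N4, with a median log2 ratio to the mean of N2 and N4 of 1.14, while the median over protein-coding genes tested was -0.65 and 2095 of 11844 of them were above both. All 7 constitutive beta genes were above both, with log2 ratios of 0.93 to 1.94; *Psmb2* was at 33.9 FPKM in N3 against 9.92 and 7.81 FPKM, and *Psmb4* at 40.1 FPKM against 17.3 and 13.0 FPKM. In the alpha ring the median log2 ratio was 1.05, with *Psma3* (0.16) and *Psma7* (0.11) the lowest.

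The regulatory particle differed less, with a median log2 ratio of 0.32 over 17 genes, 0.27 in the ATPases and 0.19 in the lid. Within it *Psmd2* (1.29), *Psmd14* (1.14) and *Psmc4* (1.03) stood highest. The induced beta genes (median -0.54) and the activators (-0.53) lay near the median of protein-coding genes. N3 also had the largest library, the highest sum of proximal tubule markers of the 3 (6468 FPKM against 4349 and 2628) and far more rRNA; their part was not tested, and 1 library against 2 allows no test.

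**Figure D4:**
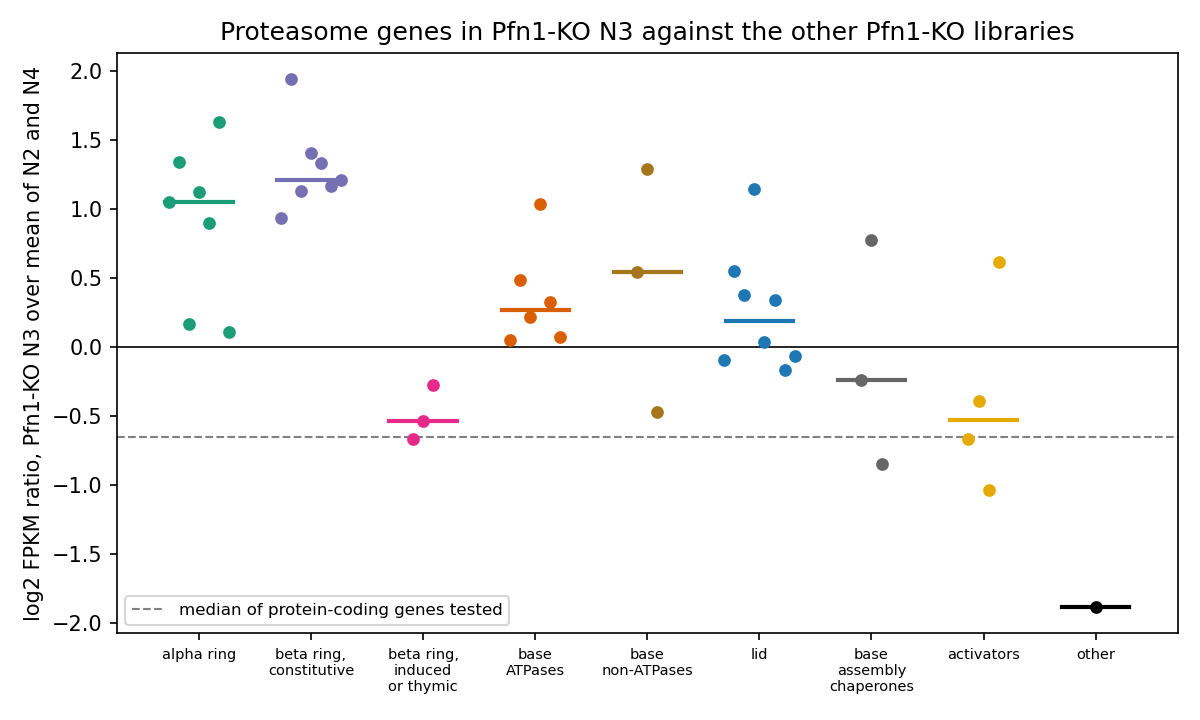
Log2 ratio of FPKM in Pfn1-KO N3 to the mean of N2 and N4 for each tested proteasome gene (points), with group medians (short lines) and the median of protein-coding genes tested (dashed, -0.65). The constitutive beta ring lies between 0.93 and 1.94 and the induced beta genes below 0.

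Genes that build, regulate and feed the proteasome were mostly higher in the libraries labelled *Pfn1*-KO. Of a list of 37 such genes (assembly factors, substrate receptors, ubiquitin genes and regulators of proteasome transcription), 36 had values, 35 were tested, 27 rose and 8 did not pass, where 70.1% of all genes tested rose. Their median log2 fold change was 2.38 against 1.75 over all genes and 1.93 over protein-coding genes tested. It was below that of all genes with limma-voom (4.42 against 5.84) and a pseudocount of 0.1 (3.70 against 3.79). The count of 27 became 10 with median-ratio scaling, 15 with rescaling to nuclear protein-coding genes, 1 with quantile normalization and 16 without Pfn1-KO N2. Over all 14631 genes tested, 6854, 8025 and 1023 were called higher with these scalings, and 6746 of 11764 without Pfn1-KO N2. The ubiquitin ligase gene *Ube3c*, whose product works at the proteasome, was unread in both controls but at 10.4, 11.6 and 11.5 FPKM in the others (limma BH-adjusted p = 0.00150). *Ube3c* entered the test only through the libraries labelled *Pfn1*-KO, so its calls are no support beyond the values.

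*Nfe2l1* encodes the transcription factor that raises proteasome subunit genes when proteasome activity is short. It overlapped between the groups at 40.9 and 24.6 FPKM in the controls versus 59.7, 24.6 and 54.2 FPKM in the others (log2 difference 0.43, SE 0.63, limma BH-adjusted p = 0.545), and its sign changed with median-ratio scaling (-1.36). The enzymes that process its product rose: *Ddi2*, a protease gene, from 1.41 and 0.413 FPKM to 24.2, 15.1 and 35.5 FPKM (3.73, SE 0.53, limma BH-adjusted p = 0.00197), and *Ngly1*, a glycanase gene, from 0 in both controls to 9.18, 10.7 and 8.60 FPKM (limma BH-adjusted p = 0.00150). *Ngly1* entered the test only through the libraries labelled *Pfn1*-KO, so its call is descriptive. *Nfe2l2*, the gene of the oxidative stress factor Nrf2, rose from 9.58 and 1.56 FPKM to 32.7, 78.5 and 29.5 FPKM (3.06, SE 0.78, limma BH-adjusted p = 0.0136), a call lost without Pfn1-KO N3 (2.62, limma BH-adjusted p = 0.0609; 0.000742 to 0.250 over its alternatives).

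*Pomp*, the maturation factor of the core particle, rose (1.87 and 1.14 against 7.20, 6.21 and 5.32 FPKM; log2 fold change 1.54, SE 0.38, limma BH-adjusted p = 0.0114), a call lost without Pfn1-KO N2 (1.45, limma BH-adjusted p = 0.0571; 0.0122 to 0.676 over its alternatives). Of the proteins that dock on the base, *Adrm1*, a ubiquitin receptor gene, was at 0.00947 and 2.16 FPKM against 5.69, 3.82 and 3.50 FPKM (1.56, SE 0.55, limma BH-adjusted p = 0.0398) and the call was lost when any library except Control N3 was left out. The deubiquitinase gene *Uchl5*, whose product binds that of *Adrm1*, was at 4.13 and 0 FPKM against 11.1, 15.1 and 9.15 FPKM (2.47, SE 0.72, limma BH-adjusted p = 0.0215), a call kept without Control N1 but lost without any other library. *Usp14*, the gene of the other deubiquitinase, was at 8.96 and 1.28 FPKM against 4.82, 5.47 and 4.92 FPKM, with the controls on either side of the other group (0.35, SE 0.65, limma BH-adjusted p = 0.635), and it passed without Control N1 (1.41, limma BH-adjusted p = 0.0294; up to 0.788 over its alternatives).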

How the data were processed

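TRAP RNA from 2 control and 3 *Pfn1*-KO samples was sequenced. According to the authors' methods, fastp 0.20 served for trimming, STAR 2.7.9 for alignment (GRCm38.p6) and featureCounts 2.0.0 for counting, genes with few reads were removed, and counts, which the table does not hold, were tested with DESeq2 1.30.1. The values deposited by the authors are FPKM with no scaling between libraries; their methods name TPM, but the column sums differ. This leaves levels dependent on the share of other RNA in a library. The strand setting of the counting is not given in the sources used here. Columns were assigned to groups by genotype in their headings, whose N numbers do not match the replicate numbers of the labels.

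Reads were recovered as FPKM times gene length (GENCODE vM21) times library size and were whole within 0.02 of a read for 20414 genes. For a gene of 2 kilobases, 1 read was worth 0.0201 to 0.0275 FPKM, and limits from 3 reads cover counting error only. Of 23010 genes listed, 1991 had no value. The 14631 genes that reached 1 FPKM in 2 or more of the 5 libraries entered limma 3.58.1 (R 4.3.3). It was fitted to log2(FPKM + 1) with an intensity trend in the prior variance, two-sided, Benjamini-Hochberg under 0.05. With 2 samples against 3, an exact permutation test cannot give a p below 0.1 and was not used. On simulated data of 14631 genes (5 draws with 200 changed genes) the test recovered 27.6% of log2 changes of 2 and 74.2% of 4, with 3 false calls on average. All simulated libraries were drawn with normal noise from the means and spreads of the libraries labelled *Pfn1*-KO. The many zeros of the controls and the shift of most genes were not simulated, so these rates do not carry over to the calls given here. For single genes at 0 in both controls, a bound against 3 reads replaces the fitted fold change, which stays in ranges, medians and figures. Such genes passed the filter only through the libraries labelled *Pfn1*-KO, in which they are higher, so their calls are descriptive. Coding windows came from GENCODE vM21 coding exons.

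The genes and lists were chosen with earlier results of these data known. Named are the catalytic and induced beta subunits, the activators, *Psmd1*, *Psmd2*, *Psmd4* and *Psmd14*, every gene called lower, the 4 largest rises among genes read in every library, the 3 most abundant, up to 5 at 0 in both controls, and of the other list up to 4 with the largest change each way plus 6 set genes; others are named with their values as examples. A gene and a sequence within this choice are left unreported. Alternatives were other filters, pseudocounts of 0.1 and 5, median-ratio scaling, quantile normalization, rescaling to TPM or to nuclear protein-coding genes, limma-voom on recovered reads, and leaving out each library. Figures were drawn with Python 3.11.15 and matplotlib 3.10.9. The protein sequences of the subunits were not used here.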

Additional observations from a re-analysis of the deposited data

How the results depend on the processing

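Over the 34 tested genes that the naming takes in, 14 alternatives gave 459 values, of which 347 kept their direction and side of the threshold, 67 lost a call, 22 gained one and 23 changed sign. *Psmd7* and *Psme1* were called lower under all 14. No paired analysis was possible because the columns carry no replicate number of the labels. Against 24 proteasome genes called higher and 2 lower, 14 were called higher among genes above 0 in every library and 13 with limma-voom; with median-ratio scaling 6 were higher and 6 lower, with quantile normalization 1 and 5, and with rescaling to nuclear protein-coding genes 11 and 6. Leaving out a library gave 15 to 22 higher and 2 to 4 lower. For the regulator list (27 higher) the counts were 12, 13, 10, 1 and 15 in the same order, and 16 to 28 higher and 0 to 1 lower without a library. Over all genes, 10251 were called higher and 312 lower; 2440 were higher among genes above 0 in every library and 1023 with quantile normalization, and 206, 904, 1806, 98 and 620 were lower with limma-voom, median-ratio scaling, quantile normalization, TPM and nuclear protein-coding rescaling (6746 to 10623 higher and 174 to 455 lower without a library). Higher calls were 97.0% of all calls, and 88.3% with median-ratio scaling, 36.2% with quantile normalization and 88.6% among genes above 0 in every library. Over all genes, 7068 of 14220 were called higher with limma-voom. Of 14631 genes, 6854 were called higher with median-ratio scaling and 8025 with nuclear protein-coding rescaling.

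*Pfn1* was at -0.70 under median-ratio scaling and -0.36 under quantile normalization, and ranged from 0.74 to 1.36 without a library. Signs changed with median-ratio scaling for *Nfe2l1* (-1.36), *Psmb10* (-0.0021), *Psmb6* (-0.46), *Psmb7* (-0.34) and *Usp14* (-1.08); with quantile normalization for *Adrm1* (-0.95), *Nfe2l1* (-0.54), *Pomp* (-0.77), *Psmb10* (-0.92), *Psmb6* (-0.62), *Psmb7* (-1.02), *Psmb8* (-0.51), *Psmb9* (-0.36), *Psmc3ip* (-0.23) and *Usp14* (-1.80); with rescaling to nuclear protein-coding genes for *Nfe2l1* (-0.63) and *Usp14* (-0.52); and with rescaling to TPM for *Psmd2* (0.17) and *Psmd4* (0.65). Without a library, log2 differences ranged from -0.28 to 2.61 for *Psmb10*, -0.86 to 0.69 for *Psmd4* and -0.72 to 1.41 for *Usp14*. The cause was not tested. By construction, the filter on genes above 0 in every library leaves 4764 genes. With 2 controls in which 56.4% and 53.1% of the genes tested were at 0, a gene at 0 there was not detected at this depth and cannot be called absent.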
